A study of Mus musculus with 9 samples.

Results

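The 10 genes described here are the ligand Bmp4, the receptors Bmpr1a and Bmpr2, the signal-carrying Smads Smad1 and Smad5, the inhibitory Smad Smad6, and the target genes Id1, Id2, Id3 and Id4. They were chosen by name, as the bone morphogenetic protein (BMP) pathway and its Id targets, and all 10 were found among the 38293 genes of the count table after Ensembl identifiers had been matched to mouse symbols. The rule uses names and no measured value.

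BMP ligands bind a complex of type I and type II serine/threonine kinase receptors, and the type I receptor then phosphorylates Smad1 and Smad5, which enter the nucleus together with Smad4. Genes of the Id family are classical direct targets of these Smads. Id proteins carry a helix-loop-helix domain without the basic region that contacts DNA, and by binding E proteins such as Tcf3, Tcf4 and Tcf12 they keep basic helix-loop-helix factors off their sites. In mouse embryonic stem cells, BMP supplied with serum acts together with leukemia inhibitory factor (LIF) to hold back neural differentiation, and Id genes are among its best known mediators.

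RNA-seq was performed on E14 mouse embryonic stem cells, an established line of strain 129/Ola, in 3 culture states with 3 libraries each. mESC-2i cells were naive cells kept in N2B27 medium with 1 µM of the MEK inhibitor PD0325901, 3 µM of the GSK3 inhibitor CHIR99021 and 10 ng/mL mouse LIF. mESC-ser cells, labelled primed and called the serum state below, grew on gelatin in medium with 15% foetal bovine serum and 10 ng/mL mouse LIF. EpiLC, epiblast-like cells, were derived from the naive cells on fibronectin, in N2B27 with 20 ng/mL activin A, 12 ng/mL bFGF and 1% KSR, with no LIF or inhibitor listed. All 3 states were E14, so each comes from a single line, and no length of time in a medium was given in the labels. The titles of the mESC-2i libraries carry the tag LT, which is not explained there. No medium was described as containing added BMP, and serum is an undefined mixture. The libraries are labelled as biological replicates, but what separates them is not stated, so p-values measure the spread between these libraries. The states differ in medium, inhibitors, LIF and substrate together, and the effects of these cannot be told apart.

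The libraries held 7187576 to 16829549 counts and 19288 to 21588 genes with a count. The summed level of 5 naive pluripotency markers was 2327 to 2520 CPM (counts scaled to library size) in mESC-2i, 1330 to 1431 CPM for mESC-ser and 30.9 to 37.2 CPM for EpiLC. That of 5 epiblast markers was 92.0 to 105 CPM, 676 to 789 CPM and 1719 to 1816 CPM in the same order, so the markers followed the labels. Levels below are CPM scaled by TMM, edgeR's normalisation for library composition, over all 9 libraries. Where different genes are set side by side, levels are RPKM, the same values per kilobase of annotated exon. In bulk RNA, fewer cells that express a gene and less RNA per cell cannot be told apart.

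The sequence just upstream of the transcription start is shown for 4 members whose RNA differed between the states, since Smads read short motifs in DNA and promoters that share a response can be compared by eye. Promoter windows of 300 bases (250 before and 50 after the start) were available from RefSeq (GRCm38.p6) for 9 of the 10 members. Id1 had no entry. Printed are the bases before the start that lie outside every annotated exon, 5′ to 3′ on the gene's strand. Capitals mark GGCGCC, the palindrome bound by Smad1 and Smad5, in Id2 and Id4, and in Smad6 the stretch GNCGNC followed by 5 bases and GTCT, in which the part before the gap is the loose form of the Smad1/Smad5 motif and GTCT is the Smad4 box.
Id2 (chr12:25096254-25096342, minus strand): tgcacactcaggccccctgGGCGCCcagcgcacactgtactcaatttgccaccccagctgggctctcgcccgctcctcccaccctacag
Id4 (chr13:48260866-48261115, plus strand): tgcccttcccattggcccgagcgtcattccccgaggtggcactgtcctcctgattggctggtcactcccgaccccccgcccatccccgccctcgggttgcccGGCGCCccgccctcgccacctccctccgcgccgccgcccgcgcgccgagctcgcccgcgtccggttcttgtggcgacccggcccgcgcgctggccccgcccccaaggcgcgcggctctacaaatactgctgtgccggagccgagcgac
Bmp4 (chr14:46390670-46390919, minus strand): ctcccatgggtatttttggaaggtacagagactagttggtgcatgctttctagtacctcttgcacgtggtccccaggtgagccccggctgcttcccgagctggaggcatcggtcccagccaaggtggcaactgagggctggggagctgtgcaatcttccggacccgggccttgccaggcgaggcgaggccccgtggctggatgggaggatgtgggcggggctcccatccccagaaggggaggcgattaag
Smad6 (chr9:64022060-64022309, minus strand): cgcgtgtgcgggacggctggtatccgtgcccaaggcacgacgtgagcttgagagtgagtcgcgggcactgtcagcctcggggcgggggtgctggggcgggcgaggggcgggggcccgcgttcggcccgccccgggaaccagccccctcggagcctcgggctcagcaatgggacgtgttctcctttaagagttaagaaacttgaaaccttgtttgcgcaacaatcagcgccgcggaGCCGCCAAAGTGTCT

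On either strand, GGCGCC occurred in a window each of Id2, Id4, Bmpr1a, Bmpr2 and Smad5 or in more, and in 11.9% of all 32851 RefSeq windows of this length. The 9 members had 11 windows, and the windows compared were not matched for GC content, so enrichment was not tested. The composite GNCGNC, 5 bases, GTCT occurred in 0.667% of all windows and, among the members, in that of Smad6, where it ends at the base before the start. GTCT by itself, which every composite match also contains, was in 88.0% of windows, and the E-box CANNTG, the site of basic helix-loop-helix factors, was in 72.3%. The Bmp4 stretch held 3 E-boxes and no GGCGCC. The Id2 stretch lies inside the annotated gene, upstream of the RefSeq start and in an intron of a longer annotated transcript. These matches describe the letters in these windows and not binding, which was not measured here.

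Across the 3 states the members followed a common outline with marked exceptions. In mESC-ser compared with mESC-2i, 7 of the 10 members rose (Id1, Id2, Id3, Bmp4, Bmpr1a, Bmpr2 and Smad5), 1 fell (Id4), and Smad1 and Smad6 were not called. A gene was called at an adjusted p below 0.05 and an absolute log2 fold change above 0.5 in edgeR's quasi-likelihood test over all genes. By the same rule 25.9% of the 15728 genes tested rose and 30.3% fell. In EpiLC compared with mESC-2i, none of the members rose and 7 fell (Id2, Id4, Bmp4, Bmpr2, Smad1, Smad5 and Smad6), where 32.0% of 15378 genes rose and 37.8% fell. Without the threshold on fold change, 1 member, Id3, was higher there at an adjusted p below 0.05 in edgeR, and DESeq2 called it higher. In EpiLC compared with mESC-ser, 9 of 10 fell, all but Id3, where 35.5% of 15345 genes rose and 37.8% fell, and all 10 log2 fold changes were below 0 in edgeR and in DESeq2. The libraries of the 2 groups did not overlap for 9, 8 and 10 of the members in these comparisons, against 70.7%, 81.8% and 85.7% of all genes tested. All 10 members passed the filter on low counts in every comparison. The 3 comparisons share libraries and are therefore not independent of each other.

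**Figure D1:**
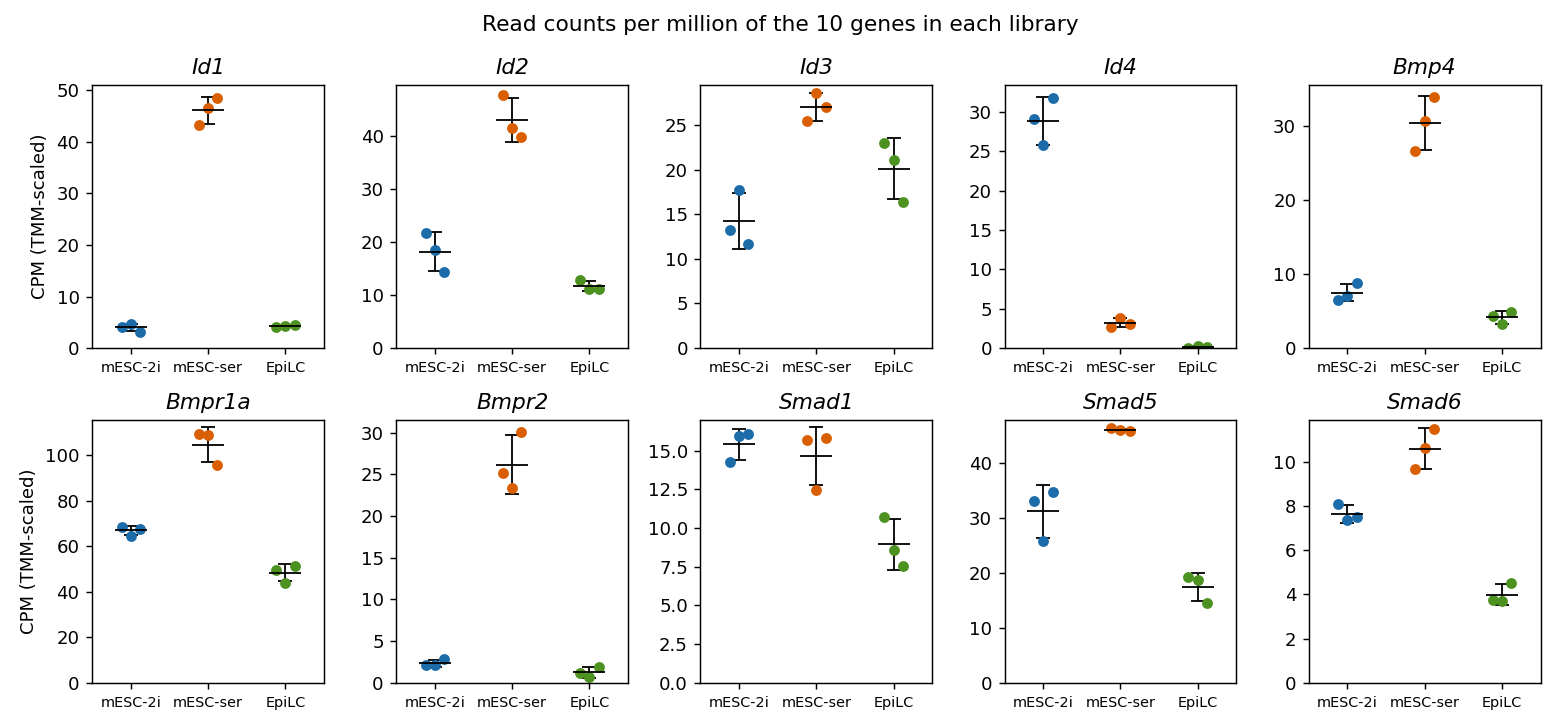
Level of each of the 10 genes in CPM (TMM-scaled, linear axis from 0, a separate scale per gene) for the 3 libraries of mESC-2i, mESC-ser and EpiLC. Points are libraries, horizontal lines are means and bars are SD (n = 3); the mESC-ser points of Id1 sit at 43.3 to 48.6 CPM, above all points of the other states, whereas those of Id4 sit at 2.73 to 3.82 CPM, far below mESC-2i.

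The median log2 fold change of the members was 0.73 in mESC-ser relative to mESC-2i, -0.83 in EpiLC relative to mESC-2i and -1.56 in EpiLC relative to mESC-ser, and that of all genes tested was -0.04, -0.11 and -0.07. Scaling by total counts instead of TMM shifted the median of all genes to -0.45 in EpiLC relative to mESC-2i and to -0.41 in EpiLC relative to mESC-ser, so EpiLC differences are relative to the TMM baseline. With that scaling 3709 genes rose and 7284 fell in EpiLC relative to mESC-2i, in place of 4922 and 5810, and 4294 rose and 7195 fell relative to mESC-ser, in place of 5444 and 5802. It called 8 and 10 members in these comparisons, all lower. Several differences depended on a correction for exonic length and GC content. A fit in which every library had its own smooth trend with these properties left 7, 5 and 7 members called in the 3 comparisons in place of 8, 7 and 9. The 4 members with exons above the median of 4373 bp for tested protein-coding genes (Bmpr1a, Bmpr2, Smad1 and Smad5) moved toward 0 in all 3 comparisons under that fit. Values from it are given below for the comparisons described where it ended or made a call, turned a direction or moved a fold by more than 1.5 times.

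**Figure D2:**
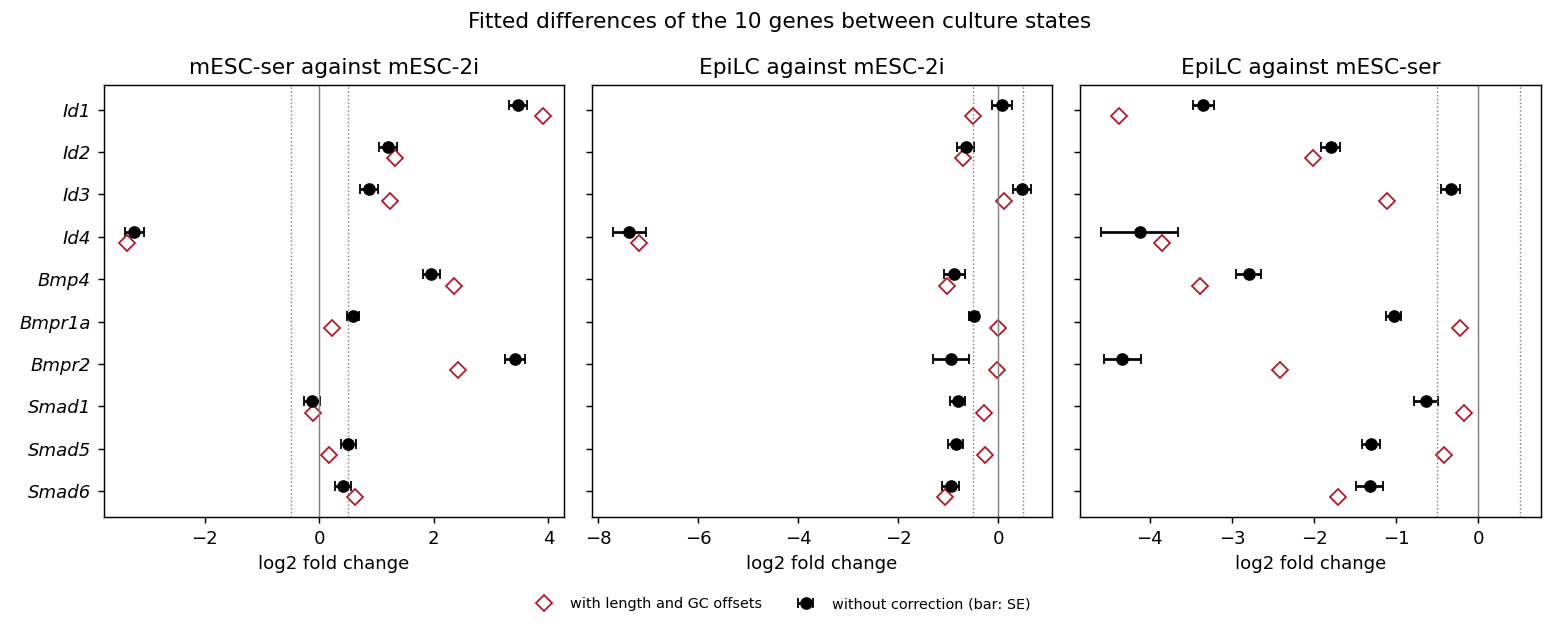
Log2 fold change of each of the 10 genes in the 3 comparisons, from the fit without correction (filled points, bars are SE) and from the fit with length and GC offsets (open diamonds), with dotted lines at the threshold of 0.5 in either direction. In EpiLC relative to mESC-2i, Id4 stands at -7.38, and Smad1 and Smad5 move from -0.81 and -0.85 to -0.28 and -0.26 with the offsets.

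Bmp4 encodes a secreted ligand of the pathway. The gene spans chr14:46383520-46390669 on the minus strand (mm10) and overlaps Gm15217 on the opposite strand. Its level was 6.51, 7.09 and 8.73 CPM in mESC-2i, 26.6, 30.6 and 33.8 CPM in serum, and 4.29, 3.25 and 4.90 CPM in EpiLC. All mESC-ser libraries lay above all others, and all EpiLC libraries lay below all mESC-2i libraries. Bmp4 was 3.89-fold higher in mESC-ser than in mESC-2i (log2 fold change 1.96 ± 0.15 SE, adjusted p = 2.17e-06). It was lower in EpiLC than in mESC-2i, with a log2 fold change of -0.88 ± 0.21 SE (adjusted p = 0.00245), and 6.95-fold lower in EpiLC than in mESC-ser (-2.80 ± 0.16 SE, adjusted p = 4.53e-11), a log2 fold change that was -3.39 with the offsets. Its upstream sequence, printed above, was the one of the 4 without capitals.

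The receptors differed from each other in how far they moved. Bmpr1a, the type I receptor also known as ALK3, spans chr14:34410734-34503341 on the minus strand and overlaps Gm17110 on the opposite strand. Its level was 68.5, 64.5 and 67.7 CPM in mESC-2i, 109, 109 and 95.6 CPM in serum, and 49.5, 44.0 and 51.3 CPM in EpiLC. The 3 states did not overlap, in the order mESC-ser, mESC-2i, EpiLC. Bmpr1a rose in mESC-ser by 0.58 ± 0.10 SE on the log2 scale (adjusted p = 0.000507), and with the length and GC offsets the difference was 0.22 and not called. In EpiLC its log2 fold change against mESC-2i was -0.49 ± 0.10 SE (adjusted p = 0.000705), just inside the threshold of 0.5 and so not called. That value depended on the processing: it was -0.01 with the offsets and -0.83 with total counts. Against mESC-ser, Bmpr1a was 2.04-fold lower in EpiLC (-1.03 ± 0.09 SE, adjusted p = 1.64e-08), which became -0.22 with the offsets and was then not called.

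Bmpr2, the type II receptor that activates type I receptors, spans chr1:59763400-59879014 on the plus strand and has 17983 bp of annotated exon, the longest of the 10. It was measured at 2.09, 2.08 and 2.81 CPM in mESC-2i, 25.1, 23.3 and 30.1 CPM in serum, and 1.21, 0.651 and 1.88 CPM in EpiLC, where these values rest on 9, 6 and 15 counts. Its mESC-ser libraries stood apart from all others, and the EpiLC libraries lay just below those of mESC-2i. Bmpr2 was 10.7-fold higher in mESC-ser than in mESC-2i (log2 fold change 3.42 ± 0.18 SE, adjusted p = 1.63e-07) and 20.1-fold lower in EpiLC than in mESC-ser (-4.33 ± 0.22 SE, adjusted p = 1.57e-11). With the offsets these differences were 2.42 and -2.41, still called. The fall in EpiLC relative to mESC-2i, by 0.95 ± 0.36 SE on the log2 scale (adjusted p = 0.0303), was less secure. It was -0.02 with the offsets and had an adjusted p of 0.101 in DESeq2, and the call was lost without EpiLC replicate 1 (-0.92), without EpiLC replicate 2 (-0.60) and without mESC-2i replicate 3 (-0.78). Per length, Bmpr1a exceeded Bmpr2 in every library, by 83.0 ± 13.0 times (SD, n = 3) in RPKM in mESC-2i, 11.5 ± 2.21 times in mESC-ser and 128 ± 58.2 times in EpiLC.

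Smad1 and Smad5, the receptor-activated Smads of the BMP branch, were lowest in EpiLC. Smad1 spans chr8:79338395-79399518 on the minus strand. Smad5 spans chr13:56703010-56742377 on the plus strand and overlaps Gm27301 on the same strand. Smad1 ranged from 14.2 to 16.1 CPM in mESC-2i, from 12.5 to 15.8 CPM in serum and from 7.54 to 10.7 CPM in EpiLC. The naive and serum libraries overlapped, and every EpiLC library lay below both. In mESC-ser relative to mESC-2i, the log2 fold change of Smad1 was -0.13 ± 0.14 SE (adjusted p = 0.424), with a 95% interval of -0.40 to 0.14 taken as 1.96 SE to either side. Smad1 fell in EpiLC by 0.81 ± 0.16 SE against mESC-2i (adjusted p = 0.000648) and by 0.64 ± 0.15 SE against mESC-ser (adjusted p = 0.000911), both on the log2 scale. With the length and GC offsets these were -0.28 and -0.18, and neither was called.

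Smad5 was measured at 33.0, 25.8 and 34.8 CPM in mESC-2i, 46.3, 45.9 and 45.9 CPM in serum, and 19.2, 18.7 and 14.6 CPM in EpiLC. No libraries of different states overlapped, and the mESC-ser libraries were nearly equal. Smad5 was higher in mESC-ser than in mESC-2i by 0.50 ± 0.13 SE on the log2 scale (adjusted p = 0.00605), a value that only just passed the threshold. It was 0.37 and not called without mESC-2i replicate 2, and 0.17 with the offsets. Smad5 fell in EpiLC by 0.85 ± 0.16 SE against mESC-2i (adjusted p = 0.000483) and was 2.48-fold lower than in mESC-ser (log2 fold change -1.31 ± 0.11 SE, adjusted p = 6.31e-09). The offsets brought these to -0.26 and -0.42, and both calls were lost. Per length, Smad5 exceeded Smad1 in every library: Smad1 was 0.597 ± 0.119 of Smad5 in RPKM in mESC-2i (SD, n = 3), 0.377 ± 0.0479 in mESC-ser and 0.607 ± 0.0596 in EpiLC. Their summed level was 6.66 ± 0.620 RPKM, 8.54 ± 0.314 RPKM and 3.78 ± 0.573 RPKM in the same order.

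Smad6 blocks BMP receptor signalling and is itself switched on by the pathway in many cells. The gene spans chr9:63953076-64022059 on the minus strand. It was measured at 8.10, 7.34 and 7.48 CPM in mESC-2i, 9.66, 10.6 and 11.5 CPM in serum, and 3.76, 3.69 and 4.52 CPM in EpiLC. The 3 states did not overlap, and they stood in the same order as for Bmp4. In mESC-ser relative to mESC-2i the log2 fold change was 0.42 ± 0.14 SE (adjusted p = 0.0245), under the threshold on fold change and so not called, and it was 0.63 and called with the length and GC offsets and 0.51 and called without mESC-ser replicate 1. Smad6 fell in EpiLC by 0.95 ± 0.17 SE on the log2 scale against mESC-2i (adjusted p = 0.000483), and was 2.51-fold lower than in mESC-ser (-1.33 ± 0.16 SE, adjusted p = 1.07e-06). The composite motif in its printed promoter stretch was not found in the windows of the other 8 members that had one.

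Id1, the best known BMP target of the family, was among the members that rose most in serum. The gene is short, at chr2:152736251-152737410 on the plus strand with 1160 bp of exon. Its level was 4.17, 4.67 and 3.20 CPM in mESC-2i, 43.3, 46.5 and 48.6 CPM in serum, and 4.16, 4.23 and 4.40 CPM in EpiLC. The serum libraries stood far above all others, and the EpiLC libraries lay within the range of mESC-2i. Id1 was 11.1-fold higher in mESC-ser than in mESC-2i (log2 fold change 3.47 ± 0.15 SE, adjusted p = 5.3e-08) and 10.2-fold lower in EpiLC than in mESC-ser (-3.35 ± 0.12 SE, adjusted p = 3.52e-13), and the latter log2 fold change was -4.37 with the offsets. In EpiLC relative to mESC-2i its log2 fold change was 0.08 ± 0.21 SE (adjusted p = 0.744), with a 95% interval of -0.33 to 0.48. That direction depended on the scaling: the difference was -0.26 with total counts, and -0.51 with the length and GC offsets, where it was called as lower (adjusted p = 0.0284).

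Id2 (chr12:25093799-25097140, minus strand) also rose in serum and was lowest in EpiLC. It was measured at 21.6, 18.4 and 14.3 CPM in mESC-2i, 47.7, 41.5 and 39.7 CPM in serum, and 12.8, 11.2 and 11.1 CPM in EpiLC. No libraries of different states overlapped. Id2 was 2.30-fold higher in mESC-ser than in mESC-2i (log2 fold change 1.20 ± 0.16 SE, adjusted p = 8.03e-05) and 3.48-fold lower in EpiLC than in mESC-ser (-1.80 ± 0.12 SE, adjusted p = 2.5e-10). Its fall from mESC-2i to EpiLC was smaller, by 0.65 ± 0.17 SE on the log2 scale (adjusted p = 0.00513), and without mESC-2i replicate 1 it was -0.47 and not called.

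Id3 (chr4:136143497-136145755, plus strand) kept a level in EpiLC between those of the stem cell states. It was measured at 13.3, 17.7 and 11.6 CPM in mESC-2i, 25.5, 28.6 and 27.0 CPM in serum, and 23.0, 21.0 and 16.3 CPM in EpiLC. The serum libraries were highest without overlap, whereas EpiLC and mESC-2i overlapped. Id3 was 1.83-fold higher in mESC-ser than in mESC-2i (log2 fold change 0.87 ± 0.16 SE, adjusted p = 0.000605). In EpiLC relative to mESC-2i the log2 fold change was 0.48 ± 0.18 SE (adjusted p = 0.0300), not called, with a 95% interval of 0.13 to 0.84. It was called as higher without mESC-2i replicate 2 (0.72), without EpiLC replicate 3 (0.62) and in DESeq2 (0.55), and was 0.13 with the length and GC offsets. Against mESC-ser, Id3 in EpiLC was at -0.34 ± 0.12 SE (adjusted p = 0.0150), again under the threshold on fold change, and at -1.11 and called with the offsets and -0.68 and called with total counts.

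Id4 ran opposite to the other Id genes in serum. The gene lies at chr13:48261228-48266026 on the plus strand and overlaps A330033J07Rik and Gm49291 on the opposite strand. Its level was 29.1, 25.8 and 31.7 CPM in mESC-2i and 2.73, 3.82 and 3.10 CPM in serum, and the 3 EpiLC libraries held 0, 3 and 1 counts. The 3 states were far apart, and in EpiLC the gene was at the limit of what these libraries can measure. Id4 was 9.40-fold lower in mESC-ser than in mESC-2i (log2 fold change -3.23 ± 0.17 SE, adjusted p = 1.32e-07). Between mESC-2i and EpiLC, 953 counts stood against 4 over 3 libraries each, a ratio of 178 after scaling for library size with a 95% interval of 69.3 to 655 that covers counting error only (fitted log2 fold change -7.38 ± 0.33 SE, adjusted p = 1.89e-08). Between mESC-ser and EpiLC, 138 counts stood against 4, a ratio of 19.5 with an interval of 7.46 to 72.7 (-4.12 ± 0.47 SE, adjusted p = 4.12e-07). The library kit does not mark strand, and reads of Id4, Bmp4 and Bmpr1a could not be separated from those of their antisense partners.

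The makeup of the Id family changed with the culture state. Summed over the 4 genes, the level was 26.3 ± 2.60 RPKM (SD, n = 3) in mESC-2i, 73.3 ± 1.28 RPKM in mESC-ser and 19.7 ± 2.10 RPKM in EpiLC. Id1 made up 13.1 ± 1.25% of the sum in mESC-2i, 54.2 ± 2.27% in serum and 18.8 ± 2.61% in EpiLC. The share of Id3 was 30.0 ± 4.45%, 20.6 ± 0.894% and 56.7 ± 3.90% in the same order. Thus Id1 was the leading Id gene in serum and Id3 in EpiLC, and in mESC-2i Id2, Id3 and Id4 had overlapping levels. Id4 made up 28.9 ± 5.88% in mESC-2i, 1.14 ± 0.181% in serum and 0.203 ± 0.211% in EpiLC. Id2 stayed between 22.0% and 32.3% of the sum in all 9 libraries.

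**Figure D3:**
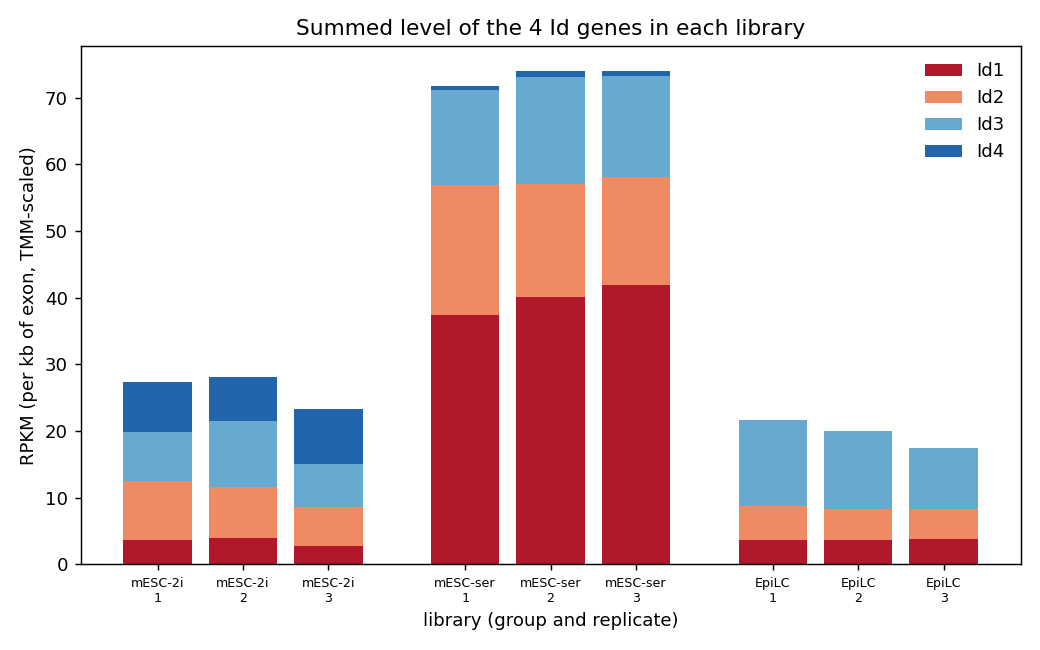
Stacked bars of the level of Id1, Id2, Id3 and Id4 in each of the 9 libraries, in RPKM (TMM-scaled, axis from 0), 1 bar per library. The mESC-ser bars reach 71.8 to 74.1 RPKM and are mostly Id1, the mESC-2i bars reach 23.3 to 28.1 RPKM with all 4 genes visible, and the EpiLC bars reach 17.5 to 21.6 RPKM and are mostly Id3.

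The E proteins are the partners that Id proteins bind. Summed over Tcf3, Tcf4 and Tcf12, their level was 53.0 ± 2.07 RPKM in mESC-2i, 52.2 ± 6.06 RPKM in mESC-ser and 43.3 ± 0.176 RPKM in EpiLC (SD, n = 3). Most of this sum was Tcf3, with means of 46.7, 47.1 and 41.3 RPKM in the same order. Tcf4 was at 2.61, 2.43 and 0.661 RPKM and Tcf12 at 3.73, 2.70 and 1.38 RPKM. The summed Id level divided by the summed E protein level was 0.496 ± 0.0441 in mESC-2i, 1.41 ± 0.152 in serum and 0.455 ± 0.0487 in EpiLC. The serum libraries, at 1.25 to 1.55, stood above all others, and the EpiLC libraries overlapped those of mESC-2i. These are ratios of RNA and not of protein, and no test was made of them.

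Set side by side per length, the members stood in a different order in each state. In mESC-2i, Bmpr1a was highest at 10.5 RPKM, and Id3 (7.92), Id4 (7.50) and Id2 (7.42 RPKM) followed with ranges that overlapped. Smad5, Id1 and Bmp4 also overlapped in turn, as did Smad1 and Smad6, and Bmpr2 was last at 0.129 RPKM. In mESC-ser, Id1 stood clear of all at 39.8 RPKM, Id2, Bmpr1a, Id3 and Bmp4 followed with each overlapping the next (17.6, 16.4, 15.1 and 13.5 RPKM), and Smad5, Smad6, Smad1, Bmpr2 and Id4 each lay apart below them. In EpiLC, Id3 led at 11.2 RPKM, followed without overlap by Bmpr1a at 7.60, Id2 at 4.78 and Id1 at 3.67 RPKM. Bmpr2 and Id4, at 0.0694 and 0.0391 RPKM, were last and overlapped. RPKM divides by all annotated exon, so a gene whose cells use a shorter transcript is understated, which was not tested for Bmpr2 with its 17983 bp.

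Of 43 other genes of the pathway listed by role, 8 stayed under 1 CPM in every state. In mESC-ser relative to mESC-2i, 14 of 35 tested rose and 9 fell, with a median log2 fold change of 0.14. In EpiLC, 5 of 31 rose and 18 fell against mESC-2i (median -0.73), and 5 of 33 rose and 22 fell against mESC-ser (median -0.97). Over all genes tested, 25.9% rose and 30.3% fell in the first comparison, 32.0% and 37.8% in the second, and 35.5% and 37.8% in the third. With at least 10 counts required in every library the calls were 15, 13 and 17.

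Among the other ligands, 4 of 6 tested rose and 2 fell in serum, where 25.9% of all genes rose and 30.3% fell. Those that rose were at low levels, with means of 1.29 to 8.98 CPM in serum. In EpiLC relative to mESC-2i, 3 of 4 tested fell and 1 rose, where 37.8% of all genes fell and 32.0% rose. Bmp7, a ligand of the same family, ran opposite to Bmp4 in serum. Its mean was 35.7 ± 3.08 CPM in mESC-2i, 2.18 ± 0.743 CPM in serum and 1.21 ± 0.390 CPM in EpiLC (SD, n = 3). It fell by 4.05 ± 0.20 SE on the log2 scale in mESC-ser relative to mESC-2i (adjusted p = 1.01e-07). Rgma, a co-receptor that binds BMP ligands, was at 46.3 ± 1.04 CPM, 3.70 ± 0.280 CPM and 3.44 ± 0.890 CPM in the 3 states and fell by 3.71 ± 0.13 SE in the same comparison (adjusted p = 1.54e-08). Its relative Rgmb was at -0.30 ± 0.17 SE there, not called, and fell by 1.91 ± 0.21 SE in EpiLC relative to mESC-2i (adjusted p = 1.22e-05), or -1.32 with the offsets.

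Of the 7 other receptors and co-receptors tested in serum, 2 rose, 2 fell and 3 were not called, where 25.9% of all genes rose and 30.3% fell. Acvr1, a BMP type I receptor also known as ALK2, fell from 22.2 ± 3.57 CPM in mESC-2i to 8.03 ± 1.10 CPM in serum (log2 fold change -1.51 ± 0.17 SE, adjusted p = 2.47e-05). Acvr2b, a type II receptor shared with activin, rose from 4.60 ± 0.709 CPM to 12.6 ± 0.858 CPM (1.39 ± 0.16 SE, adjusted p = 2.8e-05). Acvr2a, its close relative, was at 14.1 ± 1.25 CPM in mESC-2i, 20.6 ± 1.81 CPM in serum and 6.67 ± 2.07 CPM in EpiLC. Its serum difference of 0.49 ± 0.14 SE was not called, and its fall in EpiLC relative to mESC-2i was called (-1.10 ± 0.20 SE, adjusted p = 0.000518).

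Smad9, the third receptor-activated Smad of the BMP branch, stood far higher in mESC-2i than in the other states, with 12.9 ± 0.122 CPM there, 0.646 ± 0.195 CPM in serum and 1.06 ± 0.173 CPM in EpiLC. Its log2 fold change relative to mESC-2i was -4.41 ± 0.22 SE for mESC-ser and -3.61 ± 0.20 SE for EpiLC (adjusted p = 9.08e-08 and 7.36e-08). Smad7, the inhibitory Smad that acts on both BMP and activin signalling, was at 120 ± 9.24 CPM, 91.2 ± 7.95 CPM and 35.2 ± 4.86 CPM in mESC-2i, mESC-ser and EpiLC. Smad7 was not called in serum (-0.45 ± 0.10 SE, adjusted p = 0.00309), and neither was Smad6, whose difference of 0.42 had the opposite direction. Like Smad6 it fell in EpiLC (-1.79 ± 0.12 SE against mESC-2i, adjusted p = 2.27e-07).

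Among modulators inside the cell, 3 of 4 rose in serum and 1 was not called, where 25.9% of all genes tested rose. Skil, a repressor of Smad activity, rose from 28.2 ± 5.10 CPM in mESC-2i to 216 ± 7.04 CPM in serum (log2 fold change 2.87 ± 0.14 SE, adjusted p = 9.36e-08), or 2.22 with the offsets. In EpiLC it was at 104 ± 14.9 CPM, a fall from mESC-ser by 0.97 ± 0.10 SE on the log2 scale (adjusted p = 6.43e-08) that turned to 0.33 with the length and GC offsets. Smurf2, a ubiquitin ligase for Smads and their receptors, was at 34.2 ± 0.624 CPM, 55.8 ± 3.07 CPM and 22.7 ± 1.07 CPM and rose in serum by 0.65 ± 0.10 SE (adjusted p = 0.000242), which was 0.43 and not called with the offsets. Its fall in EpiLC relative to mESC-2i, -0.61 ± 0.10 SE (adjusted p = 0.000233), was -0.12 and also not called with them. Fst, a secreted trap for activin and some BMPs, was at 27.0 ± 1.24 CPM, 7.33 ± 0.458 CPM and 22.3 ± 2.27 CPM and fell in serum by 1.94 ± 0.12 SE (adjusted p = 5.34e-07).

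Of the other listed BMP targets, 4 of 6 tested rose in serum and 1 fell, where 25.9% of all genes rose and 30.3% fell. Apart from Dusp9, those that rose were at low levels, with means of 3.35 to 5.28 CPM in serum. In EpiLC relative to mESC-2i, 3 of 5 tested fell and 1, Dusp9, rose, where 37.8% of all genes fell and 32.0% rose. Dusp9, a phosphatase of ERK, rose in both mESC-ser and EpiLC, from 16.0 ± 1.49 CPM in mESC-2i to 120 ± 8.63 CPM and 177 ± 9.26 CPM. Its log2 fold changes against mESC-2i were 2.85 ± 0.11 SE (adjusted p = 3.34e-08) in serum and 3.44 ± 0.11 SE (adjusted p = 1.84e-09) in EpiLC, where Id1 was not called. The E protein genes Tcf4 and Tcf12 fell in EpiLC relative to mESC-2i by 2.01 ± 0.14 SE and 1.46 ± 0.12 SE (adjusted p = 4.29e-07 and 1.28e-06). With the offsets these were -0.93 and -0.62. Against mESC-ser, Tcf4 fell by 1.80 ± 0.09 SE and Tcf12 by 0.89 ± 0.11 SE. With the offsets these differences were 2.36e-05 and 0.65, so neither fall remained.

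**Figure D4:**
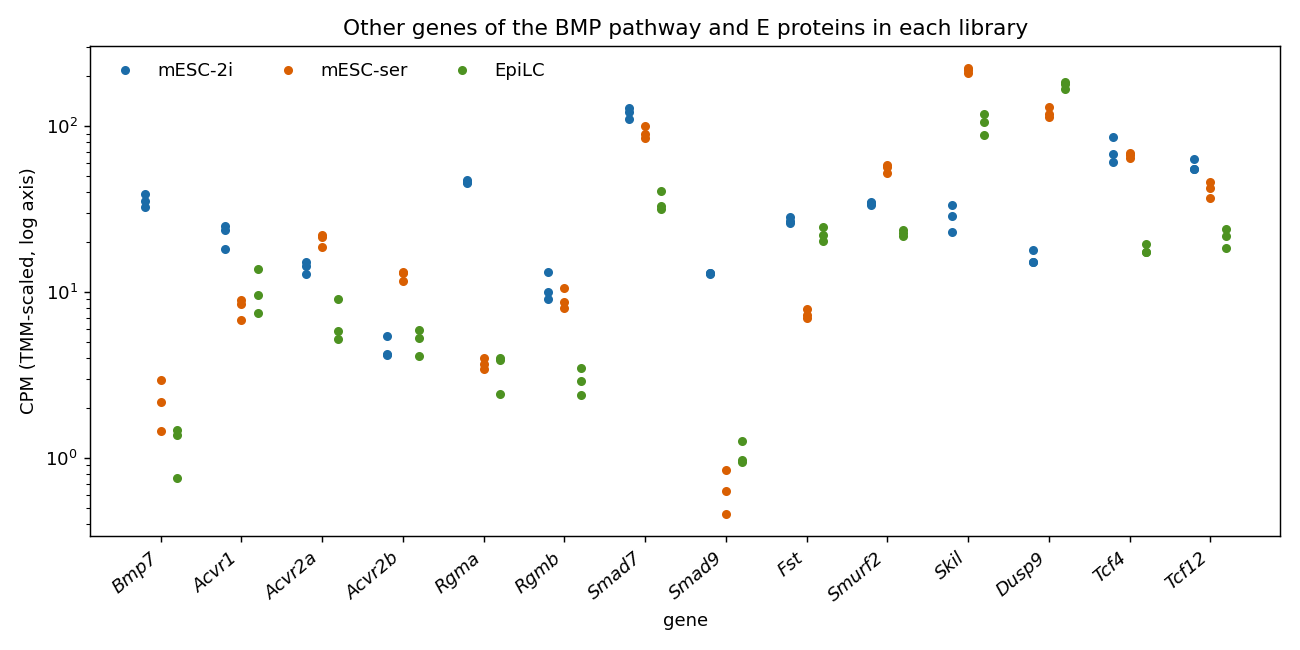
Level in CPM (TMM-scaled, log axis) of 14 other pathway genes in each library, with 3 points per culture state. Bmp7, Rgma and Smad9 sit highest in mESC-2i, Skil in mESC-ser and Dusp9 in EpiLC, whereas Smad7, Tcf4 and Tcf12 are lowest in EpiLC. The levels shown carry no length and GC offsets.

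The genes whose pattern over the 9 libraries lay nearest to that of a member, by Euclidean distance between log2 CPM values centred on each gene's mean, were drawn from 11012 candidates. For Id1 they were Klhl13, Ankrd44 and Prss23, and Klhl13 was at 47.2, 399 and 50.1 CPM in mESC-2i, mESC-ser and EpiLC at a distance of 0.720. For Id4 they were A2m, Il6ra and Hoxc13, and A2m was at 35.3, 5.25 and 0.315 CPM at a distance of 0.765. The nearest to Bmp4 were Usp44, Ep300 and Tjp1, at distances of 0.329 to 0.410. Id2 had Pot1b, Kbtbd8 and F3 at 0.363 to 0.369, and Id3 had Mettl8, Tmem79 and Eif3j1 at 0.497 to 0.512. The libraries share their culture state, so nearness over them describes 3 states more than 9 separate measurements.

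Markers of other cell types that such cultures can hold also moved between the states. The summed level of 7 primitive endoderm markers was 20.7 to 24.3 CPM in mESC-2i, 33.4 to 34.8 CPM in serum and 7.66 to 10.4 CPM in EpiLC, and in serum 4 of its 6 tested markers rose and 2 fell. That of 6 trophectoderm markers was 71.3 to 94.0 CPM, 208 to 226 CPM and 89.0 to 90.0 CPM. In serum 2 of the 5 tested rose (Krt8 and Krt18, which carried the rise of the sum), 2 fell (Cdx2 and Eomes) and 1 was not called, with Elf5 at no more than 3 counts in every library. For 5 primitive streak and mesoderm markers the sum was 85.5 to 107 CPM, 17.1 to 20.2 CPM and 2.93 to 4.43 CPM. In mESC-2i that sum was mostly T, with a mean of 85.5 CPM. In serum T fell, Hand1 rose and Kdr was not called, and Mesp1 was at no more than 3 counts in every library. For 4 early neural markers the sum was 60.3 to 65.2 CPM, 89.5 to 99.9 CPM and 29.4 to 31.7 CPM, with 2 rising and 2 falling in serum. For 7 fibroblast markers it was 44.3 to 50.8 CPM, 59.0 to 77.9 CPM and 41.0 to 45.2 CPM, with 1 rising, 1 falling and 2 not called of the 4 tested in serum and Lum at no more than 3 counts. The markers named here were picked after their values were seen. The part of such cells in the differences of the members was not tested.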

How the data were processed

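Total RNA was poly(A)-enriched, made into TruSeq v2 libraries and sequenced as 50 bp single-end reads. The authors trimmed reads with Trim Galore 0.6.6, aligned them to mm10 with HISAT2 2.2.1 and deposited raw counts per gene made with featureCounts (Subread 2.0.1). The annotation release, strand setting and handling of multimapping reads are not given in the sources used here. The reads carry no molecular identifiers, so intervals on counts cover counting error only.

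From the deposited counts, each pair of states (6 libraries) was fitted across all genes with edgeR 4.0.16 (R 4.3.3; limma 3.58.1): filterByExpr, TMM factors, and a two-sided quasi-likelihood F-test with Benjamini-Hochberg adjustment over all genes tested. A gene was called at an adjusted p below 0.05 and an absolute log2 fold change above 0.5. The SE is the absolute log2 fold change divided by the square root of F. Of the table's identifiers, 36429 of 38293 (95.1%) matched GENCODE M21 (GRCm38, the mm10 assembly), from which exonic lengths and positions were taken, and 13184 genes had no count. Scripts were tested on simulated data. Length and GC offsets were natural splines with 5 degrees of freedom per library, fitted on genes with a mean of at least 50 counts.

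The members were given by name, and the gene lists were fixed with earlier results on other genes of these data known. The rule for names took all 10 members, pathway genes called in any comparison with an absolute log2 fold change above 1 and at least 10 CPM in the higher group, and for the Id genes and Bmp4 the 3 genes with the nearest pattern among those that reach 5 CPM. Mean Id levels and ratios were described without a test. Alternatives were other scalings (RLE, upper quartile, total counts), other filters, DESeq2 1.42.0, a stricter fold change, leaving out each library, and the replicate number as a block. For mESC-ser and mESC-2i, deviations of same-numbered libraries from their group means correlated at 0.129 to 0.345 and those of other libraries at -0.278 to 0.146. Every same-numbered value was over 0.1, though 1 other pair (0.146) exceeded the lowest of them. The labels do not say what the numbers mark, so the SE and p-values given above come from fits without the block. Adding the block changed no call of a member. For EpiLC and mESC-2i, same-numbered libraries correlated at 0.0202 to 0.112 and other libraries at -0.114 to 0.0111. For EpiLC and mESC-ser these ranges were 0.0160 to 0.0332 and -0.0311 to 0.0161. The correlations do not settle whether the numbers mark pairs in any of the comparisons.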

Additional observations from a re-analysis of the deposited data

How the results depend on the processing

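With the replicate block, the members called numbered 8 (mESC-ser relative to mESC-2i), 7 (EpiLC relative to mESC-2i) and 9 (EpiLC relative to mESC-ser), as without it. Over the alternatives, leaving out each library included, the log2 fold changes of the members kept their direction and their side of the threshold 142, 128 and 143 times in the 3 comparisons. The direction turned in 1, 3 and 0 cases. Smad1 in mESC-ser relative to mESC-2i ran from -0.17 to 0.0073 as libraries were left out, and Id1 in EpiLC relative to mESC-2i ran from -0.079 to 0.26, was -0.26 with total counts and -0.51 with the length and GC offsets. None of these was called without the alternative. Calls were lost 5, 8 and 3 times and gained 2, 9 and 2 times. In EpiLC relative to mESC-2i, the lost calls were of Bmpr2 (-0.95), Smad1 (-0.81), Smad5 (-0.85) and Id2 (-0.65). Relative to mESC-ser they were of Bmpr1a (-1.03), Smad1 (-0.64) and Smad5 (-1.31), all with the length and GC offsets. The cause was not tested.

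With an absolute log2 fold change above 1, 5 members passed between mESC-ser and mESC-2i and 1 between EpiLC and mESC-2i, and 4935 genes in place of 8843 were called in the former. With at least 10 counts in every library, 15, 13 and 17 pathway genes were called in place of 23, 23 and 27, since fewer were tested. As libraries were left out, 7 to 9, 6 to 9 and 9 members were called. Depth limited Id4 and Bmpr2 in EpiLC, with at most 3 and 15 counts in a library.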
